A study of Homo sapiens with 6 samples.

Results

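Positions 691 to 900 of human 18S rRNA, the area around expansion segment 6, were read in RNA of the human embryonic kidney line HEK293T/17. The stretch is defined by its positions with no measured value in the rule, although it was picked with earlier results of these data known. Each of its 210 positions had at least 100 crossing reads in every library, out of 1869 positions in 18S and 6939 in 18S and 28S together. Total RNA depleted of short species was broken into fragments, and the fragments were treated with CMC or mock-treated. Each was then copied by HIV reverse transcriptase (HIV RT) with magnesium, by SuperScript III with manganese, or by SuperScript III with magnesium. This gave 6 libraries, 1 per group: CMC and mock for HIV RT, CMC and mock for SuperScript III and manganese, and CMC and mock for SuperScript III and magnesium. All come from 1 unperturbed cell line, and the labels describe neither a line lacking a pseudouridine synthase nor an unmodified rRNA transcript, and they mention no alkaline step after CMC. With 1 library per group, no difference between treatments or enzymes has a replicate check. RNA was cut before copying, so a cDNA that reached the end of a fragment and one that was blocked inside it are both counted as stops.

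Pseudouridine (Ψ) is an isomer of uridine in which the base is joined to the ribose through carbon. In rRNA it is made by the synthase dyskerin, which box H/ACA small nucleolar RNAs guide to each site by base pairing. CMC, a carbodiimide, reacts with Ψ as well as with U and G. Its adduct on Ψ is the one that survives mild alkali, and it makes reverse transcriptase stop or misread. Expansion segments are insertions that lengthen eukaryotic rRNA relative to bacterial rRNA, and expansion segment 6 lies on the solvent side of the small ribosomal subunit. Established pseudouridines of the stretch are Ψ801, Ψ814, Ψ815, Ψ822, Ψ863 and Ψ866, while Ψ897 is doubtful. SNORA28 is the known guide for Ψ815 and Ψ866, SNORA44 for Ψ822 and SNORA24 for Ψ863. There are 3 ribose-methylated positions beside them, Cm797, Um799 and Gm867, methylated on the sugar under box C/D guides, a change that leaves the base itself as it was.

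The sequence shows where these sites lie and which bases follow them. It is given 5′ to 3′ from the deposited tables, which write T for U, with the 7 listed pseudouridines in capitals.
18S 691 to 900: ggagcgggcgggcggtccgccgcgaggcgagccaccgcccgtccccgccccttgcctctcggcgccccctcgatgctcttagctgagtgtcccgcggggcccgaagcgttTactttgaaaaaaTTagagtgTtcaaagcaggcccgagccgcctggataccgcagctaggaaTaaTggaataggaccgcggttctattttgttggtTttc
The 15-nt windows centred on each site follow, with the site in capitals, because the copying enzyme meets the 3′ neighbour first.
Ψ801: aagcgttTactttga
Ψ814: gaaaaaaTtagagtg
Ψ815: aaaaaatTagagtgt
Ψ822: tagagtgTtcaaagc
Ψ863: ctaggaaTaatggaa
Ψ866: ggaataaTggaatag
Ψ897: tgttggtTttcggaa
Ψ801, Ψ815 and Ψ863 precede A, Ψ814, Ψ822 and Ψ897 precede U, and Ψ866 precedes the methylated G at 867. The stretch holds 44 U (21.0% of its bases, against 16.5% in the rest of 18S and 28S), 36 A, 65 C and 65 G. Its GC content is 61.9%, against 66.0% in the rest. The first 70 nt are 84.3% GC with 7 U and no listed site, the middle 70 nt are 48.6% GC with 18 U, and the last 70 nt are 52.9% GC with 19 U.

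The stop share is the percent of reads ending at a position among those ending there or crossing it, and the mutation share is the percent of mismatches among reads that cross it. A position was called when the CMC and mock libraries differed by at least 5 percentage points at a Benjamini-Hochberg adjusted p below 0.05. Fisher's exact test was used two-sided, and p was adjusted over every position tested in both rRNAs. At these depths 168, 189 and 130 of the 210 positions passed the adjusted p alone for mutation (HIV RT, manganese, magnesium), and 191, 201 and 195 passed it for stop, so the 5-point bar decided the calls. The largest adjusted p of a called position was 1.47e-194 in Fisher's exact test. A call compares 2 libraries, and its intervals cover counting error only, since the labels describe no molecular identifiers. Median crossing reads per position were 39606 with CMC against 122674 with mock for HIV RT, 50925.5 against 118988 with manganese, and 42839.5 against 77930.5 with magnesium. The widest 95% Wilson interval was 0.342 points either side for a mutation share and 0.575 points for a stop share in CMC libraries, against 0.122 and 0.220 points in mock libraries.

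After CMC, the stop share was 18.4% to 65.6% at Ψ801, Ψ814, Ψ815 and Ψ822 in every condition, and these sites lie within 22 nt. Stop shares rose at 28 of the 210 positions with HIV RT (13.3%), where 10.1% of all tested positions rose. With manganese 16 rose (7.62%, against 8.38% of all tested positions), and with magnesium 27 rose (12.9%, against 9.22%). Falls numbered 12 with HIV RT (5.71%, against 3.66% of all), 1 with manganese (0.476%, against 1.98%) and 1 with magnesium (0.476%, against 1.84%). All 6 established sites rose with HIV RT and with magnesium, and 4 of 6 with manganese, where Ψ863 and Ψ866 were the exceptions. The median change of these 6 sites in stop share was 29.1 points for HIV RT, 23.4 for manganese and 31.4 for magnesium. Over all 44 U of the stretch it was 3.97, 1.66 and 4.84 points. Ψ801, Ψ814, Ψ815 and Ψ822 were called in all 3 conditions.

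**Figure D1:**
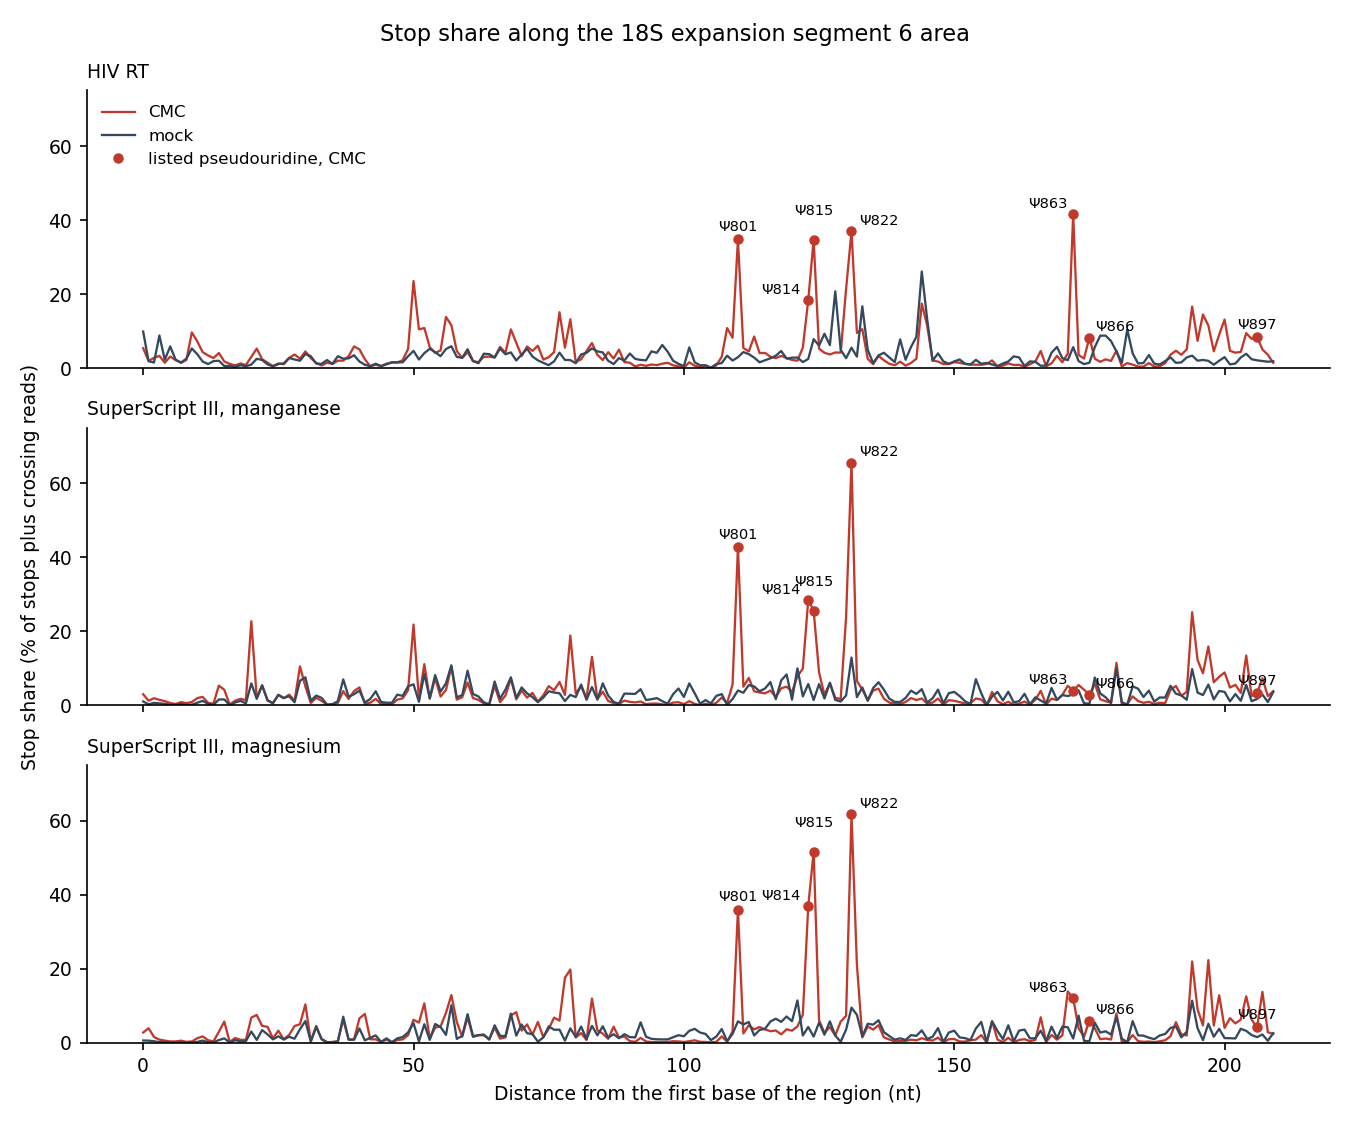
Stop share in percent at each of the 210 positions, plotted by distance from the first base, with CMC in red and mock in dark blue for each of the 3 conditions. Red points mark the listed pseudouridines, where the CMC line reaches 65.6% at Ψ822 with manganese, while Ψ863 stands out with HIV RT (41.6%) and has 4.01% with manganese.

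Ψ801, inside a run of 3 U, is the first of the established sites in the 5′ to 3′ direction. Its stop share was 34.8% with CMC against 2.94% with mock for HIV RT, 42.8% against 4.05% with manganese, and 35.9% against 5.80% with magnesium. The changes were 31.8 points (95% interval 31.3 to 32.4), 38.8 points (38.2 to 39.4) and 30.1 points (29.5 to 30.7). Every CMC value lay above every mock value. Mutation at Ψ801 was 3.75% with CMC against 0.908% with mock for HIV RT, 1.33% against 0.0654% with manganese, and 0.956% against 0.0440% with magnesium, and none of these passed the 5-point bar. Just 5′ of it, U800 rose for stop with HIV RT (8.20% with CMC, 2.05% with mock) and had 5.61% against 1.75% with manganese and 3.06% against 2.41% with magnesium.

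Ψ814 and Ψ815 are adjacent, follow a run of A, and were read differently by the 3 conditions. At Ψ814 the stop share was 18.4% with CMC against 2.48% with mock for HIV RT, 28.5% against 5.79% with manganese, and 36.9% against 4.28% with magnesium. Ψ814 was also called for mutation with HIV RT, at 6.06% with CMC against 0.927% with mock, and with manganese, at 9.90% against 0.302%. With magnesium its mutation share was 0.643% with CMC against 0.131% with mock. Of the positions in the stretch, Ψ814 alone was called for both measures with HIV RT and with manganese.

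Ψ815, guided by SNORA28, had a stop share of 34.7% with CMC against 7.82% with mock for HIV RT, 25.6% against 1.47% with manganese, and 51.7% against 1.69% with magnesium. Its mutation share was 1.22% with CMC against 0.975% with mock for HIV RT, a change of 0.25 points (0.12 to 0.39). With manganese it was 8.23% against 0.389%, a called rise, and with magnesium 0.441% against 0.0847%. The mutation change at Ψ815 with manganese exceeded that with HIV RT by 7.59 points (counting interval 7.27 to 7.93), whereas HIV RT and magnesium differed by -0.11 points (-0.27 to 0.05), an interval that includes 0. At A813, the base 5′ of the pair, the stop share was 5.52% with CMC against 1.63% with mock for HIV RT. It rose with manganese (9.94% against 2.46%) and with magnesium (7.60% against 1.97%).

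Ψ822, the SNORA44 target, had the highest CMC stop shares of the stretch under both SuperScript III conditions. They were 36.9% with CMC against 5.52% with mock for HIV RT, 65.6% against 12.9% with manganese, and 61.7% against 9.50% with magnesium. Its mock share with manganese was the highest mock stop share among the 44 U of the stretch. The stop changes with manganese and magnesium, 52.7 and 52.2 points, differed by 0.456 points (0.0645 to 0.848), and that with HIV RT was 21.3 points smaller than with manganese (20.9 to 21.7). Mutation at Ψ822 rose with HIV RT, at 8.74% with CMC against 0.443% with mock, while it was 3.10% against 0.0503% with manganese and 0.354% against 0.0470% with magnesium. HIV RT thus had the lowest stop share and the highest mutation share of the CMC libraries at this site.

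Stops were not booked to Ψ822 alone. At G821, 1 nt 5′ of it, the stop share rose with HIV RT (21.4% with CMC, 2.68% with mock) and with manganese (23.9% against 2.71%). With magnesium it was 7.29% against 3.56%. At U823, 1 nt 3′ of it, the stop share rose with HIV RT (9.51% with CMC, 3.11% with mock) and with magnesium (21.1% against 7.56%), and was 6.61% against 2.25% with manganese. G821 was thus called with HIV RT and manganese, and U823 with HIV RT and magnesium.

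Ψ863, guided by SNORA24, gave the widest spread of stop changes between conditions among the listed sites. Its stop share was 41.6% with CMC against 5.66% with mock for HIV RT, 4.01% against 2.99% with manganese, and 12.1% against 1.17% with magnesium. The change of 36.0 points with HIV RT (35.5 to 36.4) was the largest of any position of the stretch with that enzyme, against 1.01 points with manganese (0.82 to 1.22) and 10.9 points with magnesium (10.6 to 11.2). HIV RT exceeded manganese by 34.9 points (34.5 to 35.4) and magnesium by 25.1 points (24.5 to 25.6). Ψ863 mutated at 2.65% with CMC against 0.627% with mock for HIV RT, 5.13% against 0.713% with manganese, and 2.20% against 0.173% with magnesium. The manganese change, 4.42 points, fell short of the bar, and the 2.02 points with magnesium were the largest mutation change among listed sites in that condition. At A862, 1 nt 5′, the stop share rose with magnesium (13.9% with CMC, 4.20% with mock). Its CMC share exceeded that of Ψ863 itself, but its change was smaller, 9.69 points against 10.9.

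Ψ866, the other SNORA28 target, lies 3 nt from Ψ863 and was misread about as often as it stopped the enzyme with HIV RT, and more often with manganese. Its mutation share was 7.56% with CMC against 0.407% with mock for HIV RT and 8.99% against 0.145% with manganese, both called, and 0.648% against 0.0604% with magnesium. Its stop share was 8.25% with CMC against 1.45% with mock for HIV RT and 6.02% against 0.430% with magnesium, both called, and 2.93% against 0.483% with manganese. With manganese the mutation change of 8.85 points stood beside a stop change of 2.44 points, the reverse of the order at Ψ801 and Ψ822. Ψ863 had the same order as Ψ866 with manganese, at 4.42 points for mutation and 1.01 points for stop. The 2 sites that share the guide SNORA28 differed accordingly: in every condition Ψ815 had the larger stop change, and in every condition Ψ866 had the larger mutation change.

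The doubtful Ψ897 stands in a run of 4 U from 896 to 899. Its stop share was 8.45% with CMC against 2.10% with mock for HIV RT, a called rise, 3.41% against 1.74% with manganese and 4.18% against 1.53% with magnesium. Ψ897 mutated at 2.82% with CMC against 1.21% with mock for HIV RT, 1.72% against 0.327% with manganese and 0.755% against 0.0989% with magnesium, with no call. Its neighbour U896, which is not a listed site, had mutation shares of 3.14% with CMC against 0.714% with mock for HIV RT, 4.01% against 0.112% with manganese and 2.29% against 0.113% with magnesium, each above that of Ψ897 after CMC. In the same run, U898 had a called stop rise with magnesium, 13.8% with CMC against 2.25% with mock. With HIV RT Ψ897 had the highest stop share of the run after CMC, ahead of U896 at 7.90% with CMC against 2.40% with mock.

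**Figure D2:**
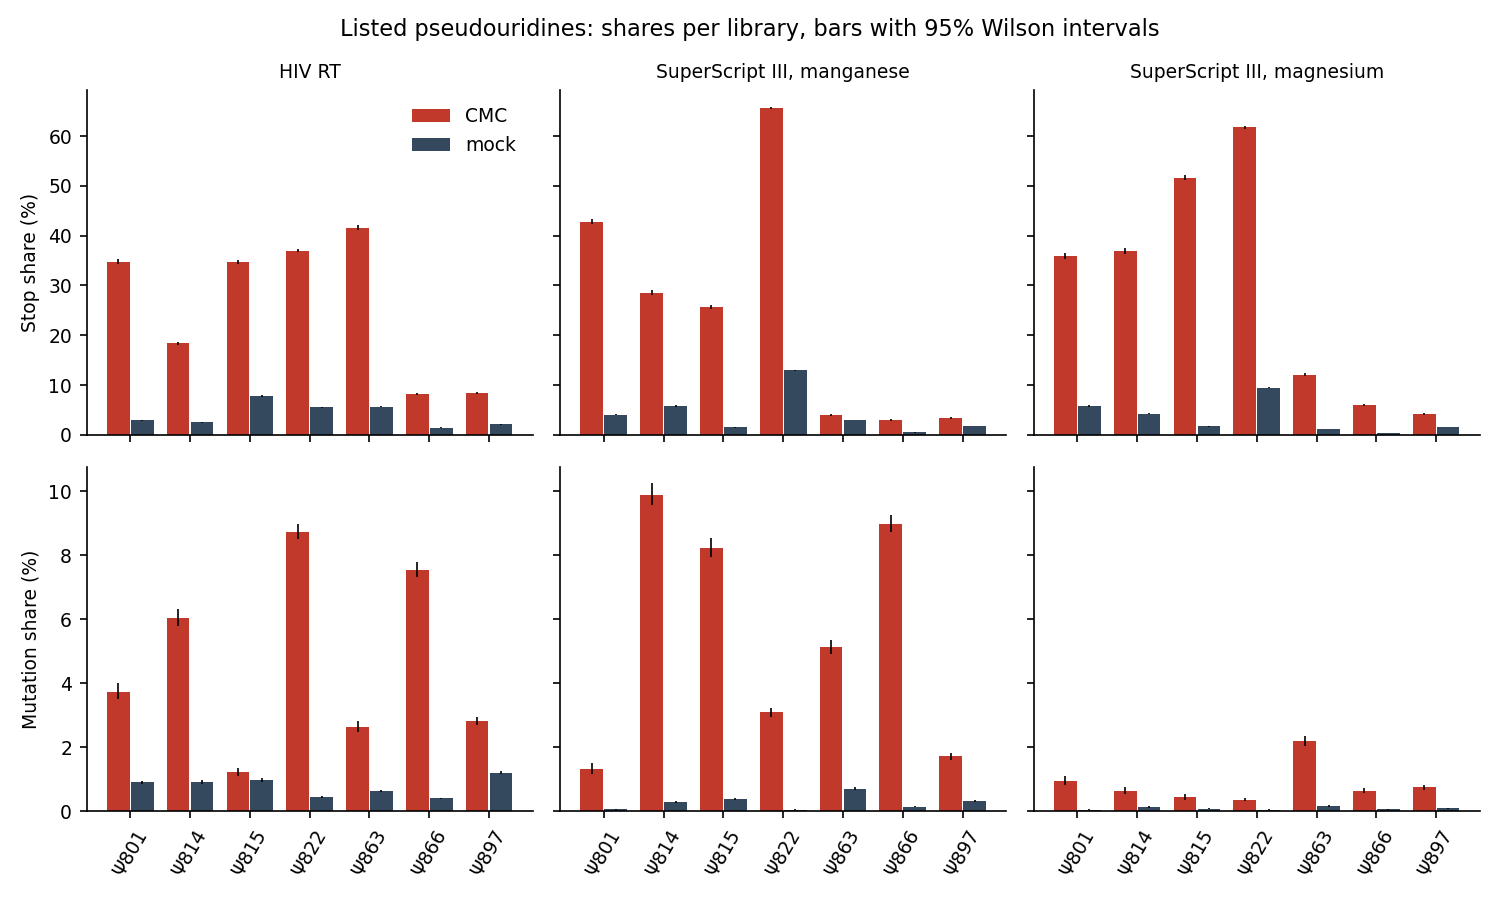
Stop share (upper row) and mutation share (lower row) in percent at the 7 listed pseudouridines, with CMC as the left red bar and mock as the right dark blue bar, 1 library each, and 95% Wilson intervals as error bars. The stop bars of Ψ801 to Ψ822 are tall in all 3 columns, the Ψ863 stop bar is tall with HIV RT (41.6%), and mutation bars above 5% occur with HIV RT and manganese.

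Mutation was rarer than stopping. The mutation share rose at 3 of the 210 positions with HIV RT (1.43%, against 1.05% of all tested positions), at 6 with manganese (2.86%, against 1.29%) and at 0 with magnesium, where 0.159% of all positions rose. None fell by the bar, while 0.101%, 0.332% and 0.0868% of all tested positions fell with HIV RT, manganese and magnesium. With magnesium no position of the stretch reached the bar, although 130 positions passed the adjusted p in Fisher's exact test. The largest mutation change there was 2.17 points, at U896. The 3 calls with HIV RT were Ψ814, Ψ822 and Ψ866, and the 6 with manganese were Ψ814, Ψ815, Ψ866, U820, U888 and G891. No position was called for mutation in all 3 conditions, and 7 were called in at least 1. Over the 6 established sites the median mutation share was 4.90% with CMC against 0.768% with mock for HIV RT, 6.68% against 0.224% with manganese, and 0.645% against 0.0726% with magnesium.

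**Figure D3:**
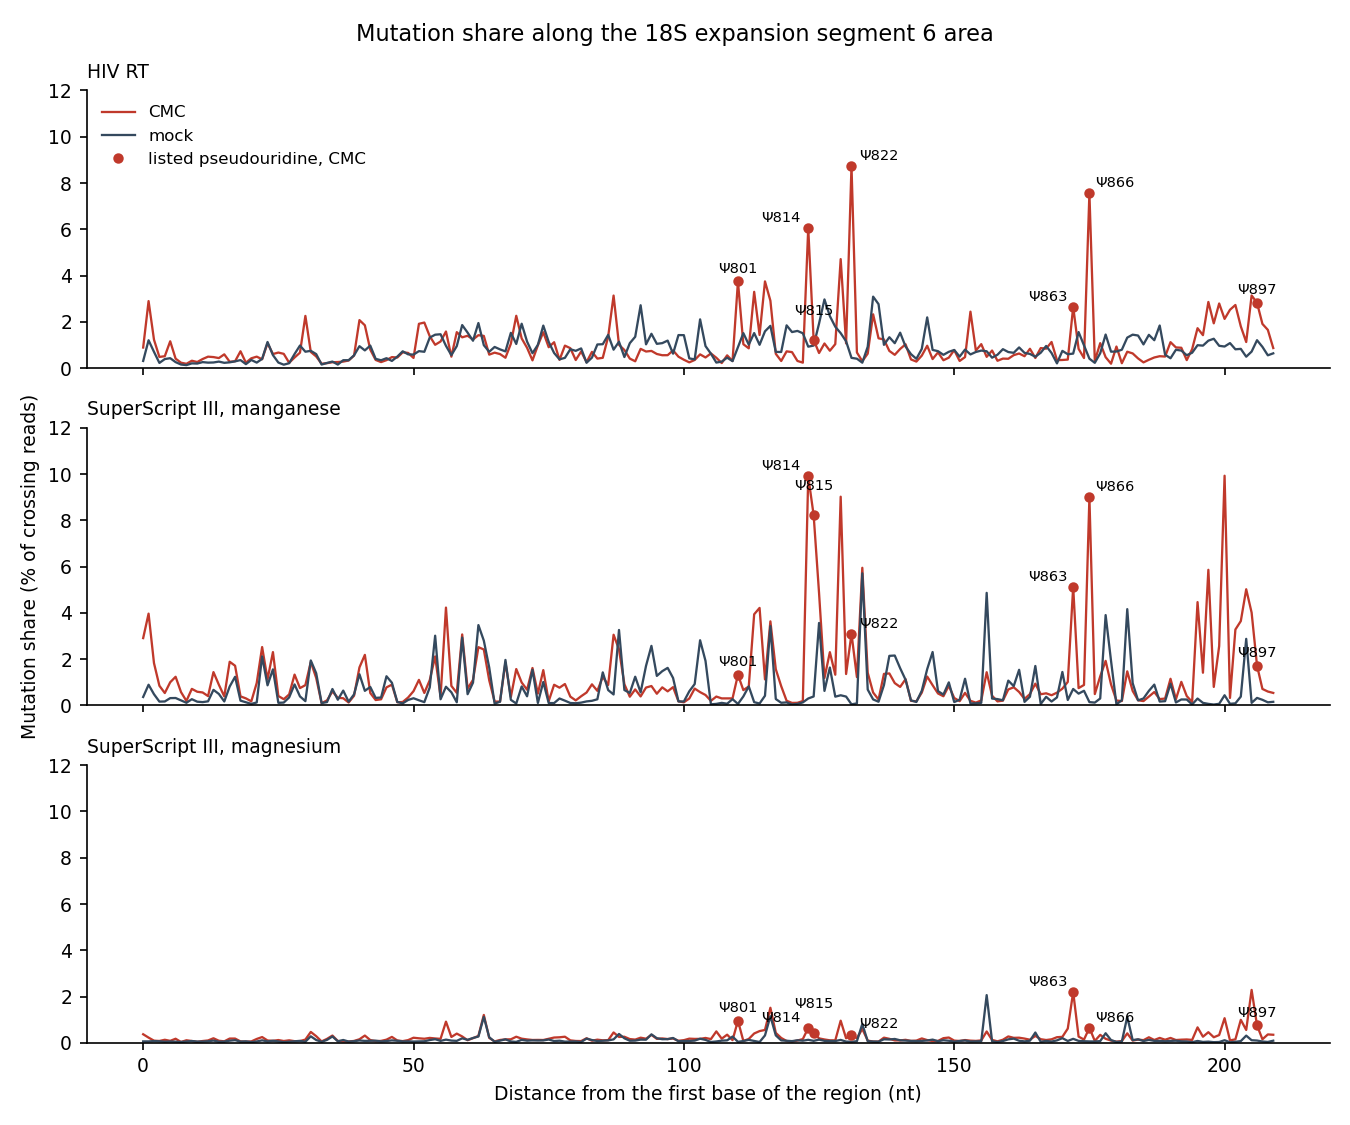
Mutation share in percent at each of the 210 positions, plotted by distance from the first base, with CMC in red and mock in dark blue for each condition on 1 common scale. CMC peaks reach 8.74% at Ψ822 with HIV RT and 9.93% at the unlisted G891 with manganese, and stay at or below 2.29% with magnesium.

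The base read in place of Ψ differed between sites and between these single libraries. With reads pooled over the 6 established sites, C made up 72.0% of mismatches with CMC against 38.4% with mock for HIV RT. It made up 44.9% against 15.1% with manganese, and 24.2% against 28.4% with magnesium. Sites weigh unequally in the pool: Ψ822 gave 5343 of 13338 reads with CMC for HIV RT, but 675 of 6055 with mock. Ψ863 gave 1398 of 2924 reads in the manganese mock library, but 2127 of 13790 with CMC. Site by site, the C share was higher with CMC at each established site for HIV RT. With manganese it was lower at Ψ801 (36.7% against 57.9%) and higher at the others. At Ψ822 C led under all 3 conditions after CMC, with 92.0%, 82.8% and 74.1% of mismatched reads against 62.7%, 68.6% and 52.8% with mock. At Ψ863 A led after CMC, with 52.7%, 75.8% and 66.2% against 43.5%, 94.6% and 66.9% with mock. Ψ866 was read mostly as C with HIV RT (65.7% with CMC, 20.7% with mock) and manganese (61.4% against 48.4%), but as A with magnesium (47.0% against 30.2%). Ψ814 was read as A in 73.7% of mismatches with manganese after CMC and 76.7% with mock, while the mutation share there differed by 9.60 points. At the other 37 U of the stretch C made up 54.5%, 51.4% and 47.1% of mismatches with CMC against 45.9%, 61.1% and 49.2% with mock. These shares rest on few reads in some libraries: at Ψ801 with magnesium there were 164 mismatched reads with CMC and 31 with mock.

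**Figure D4:**
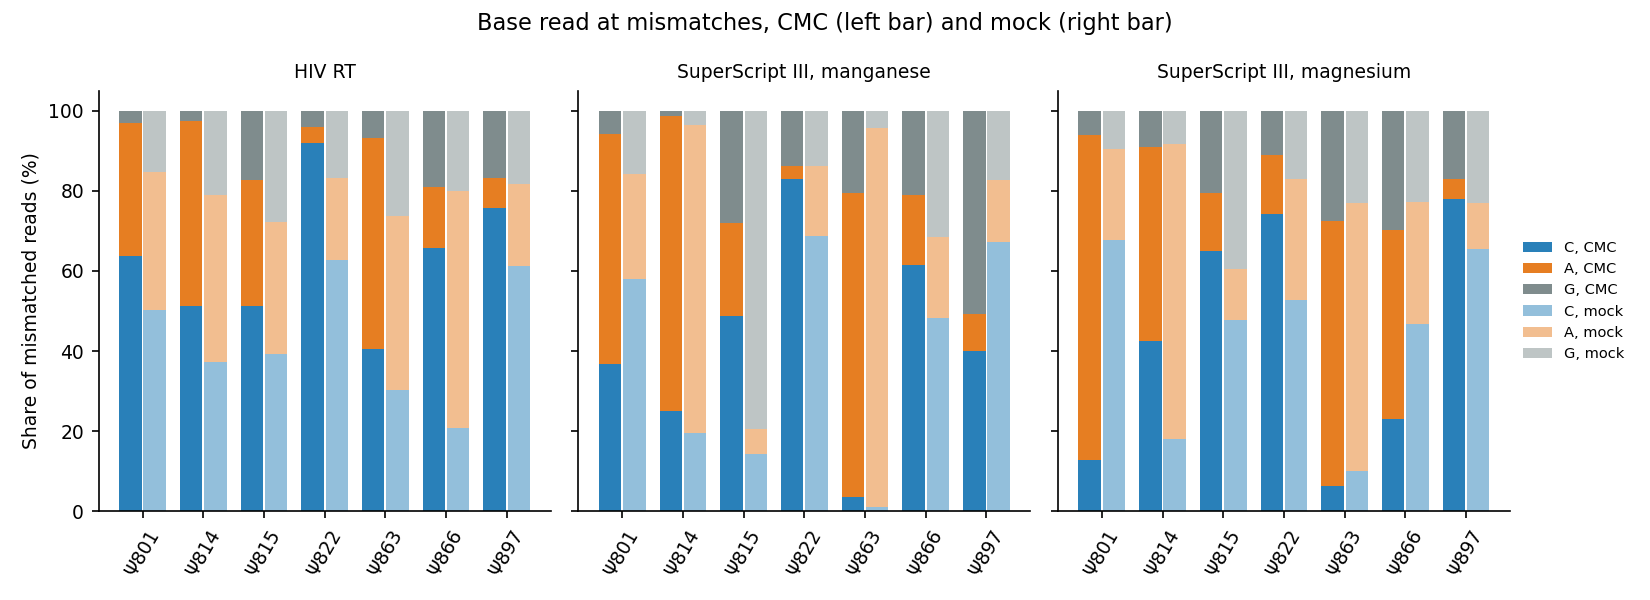
Share in percent of mismatched reads that carried C (blue), A (orange) or G (grey) at the 7 listed pseudouridines, for CMC (left bar, full colour) and mock (right bar, pale) in each condition. Blue fills most of each Ψ822 bar, and orange is the largest part of each Ψ863 bar.

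The ribose-methylated positions do not carry the isomer that keeps the CMC adduct. Um799 rose for stop with HIV RT (10.8% with CMC, 3.36% with mock), with changes of 0.57 points with manganese and -0.14 points with magnesium. The next 2 U toward the 3′ side are U800 and Ψ801. Cm797 had lower stop shares with CMC in all 3 conditions, with changes of -0.36 (HIV RT), -1.87 (manganese) and -1.43 points (magnesium). Gm867 did likewise, with changes of -3.15, -1.69 and -1.50 points, and neither position passed the bar. Stop shares were lower with CMC at 37, 49 and 47 of the 65 C of the stretch, Cm797 included. For G they were lower at 40, 41 and 33 of 65, Gm867 included. No ribose-methylated position was called for mutation, and their largest mutation change was 0.435 points, at Cm797 with magnesium.

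Stops also rose at U outside the list. Over all 44 U of the stretch, the stop share rose at 20 with HIV RT (45.5%, against 37.7% of all tested U), at 9 with manganese (20.5%, against 26.3%) and at 22 with magnesium (50%, against 43.8%). Mutation rose at 3 U with HIV RT (6.82%, against 5.81% of all tested U), at 5 with manganese (11.4%, against 5.9%) and at 0 with magnesium, where 0.521% of all U rose. The median stop change over the U of the stretch was 3.97, 1.66 and 4.84 points, against 3.15, 1.39 and 3.93 points over the U of the rest of 18S and 28S, which hold pseudouridines too. For mutation the medians were 0.83, 0.78 and 0.22 points, against 0.96, 0.77 and 0.14 points in the rest. Booking stops 1 nt further 3′ took the magnesium stop median to 1.40 points in the stretch and 0.873 points in the rest. A mean over the U of the stretch in place of the median gave stop changes of 7.14, 5.42 and 8.48 points and mutation changes of 1.38, 2.04 and 0.33 points. Excluding the 7 listed pseudouridines but keeping Um799, stop rose at 13 (35.1%), 5 (13.5%) and 16 (43.2%) of 37 U. These shares lie below those of all tested U, pseudouridines included (37.7%, 26.3% and 43.8%). Mutation rose at 0 of the 37 with HIV RT (against 5.81% of all tested U), 2 with manganese (5.41%, against 5.9%) and 0 with magnesium (against 0.521%). Mutation shares were higher with CMC at 36, 37 and 35 of these 37 U.

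The unlisted positions called for stop in every condition were U770, U885, A886, U888 and G895. U770 had 13.2% with CMC against 2.17% with mock for HIV RT, 18.9% against 2.86% with manganese and 19.8% against 3.90% with magnesium. At U885 the stop share was 16.6% against 3.37% with HIV RT, 25.2% against 9.83% with manganese and 22.0% against 11.4% with magnesium. These 2 U each precede A. Their mutation shares stayed at or below 0.862% after CMC in all conditions.

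U888, in the run of 4 U from 887 to 890, had stop shares of 11.5% with CMC against 1.96% with mock for HIV RT, 15.9% against 5.64% with manganese and 22.3% against 5.15% with magnesium. Its mutation share rose with manganese, at 5.86% with CMC against 0.0691% with mock, and A made up 95.9% of those mismatches with CMC against 59.4% with mock. G891, the base just 3′ of this run, had the highest mutation share of the whole stretch with manganese, 9.93% with CMC against 0.442% with mock, and 97.4% of the mismatches were T after CMC against 90.5% with mock. With HIV RT G891 mutated at 2.13% against 0.933%, and with magnesium at 1.07% against 0.113%. Its stop share also rose with HIV RT (13.1% with CMC, 2.96% with mock) and with manganese (8.92% against 3.67%). U888 and G891 thus carried both signals with manganese, as Ψ814 and Ψ815 did, and neither U888 nor G891 is among the established pseudouridines.

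U820, 2 nt 5′ of Ψ822, rose for mutation with manganese, at 9.02% with CMC against 0.441% with mock, and had 4.71% against 1.51% with HIV RT and 0.957% against 0.126% with magnesium. Its mismatches were read as A in 60.3% of cases with CMC against 19.7% with mock for manganese. A high mutation share at U820 came with few stops with manganese (1.76% with CMC, 1.06% with mock). With magnesium U820 was called for stop, at 5.73% against 0.281%. Other unlisted U with a large stop rise included U769 with magnesium, at 17.6% with CMC against 0.607% with mock, where HIV RT gave 5.51% against 2.21% and manganese 2.84% against 1.19%.

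Sorted by the base on their 3′ side, the 37 U that are not listed pseudouridines, Um799 among them, had medians whose order changed with the condition. With HIV RT the 9 U before G had a median mutation change of 1.85 points, against 0.67 for the 13 before U, 0.53 for the 10 before C and 0.20 for the 5 before A. For stop the order with HIV RT was U (5.50 points), A (4.0), C (1.98) and G (1.97). With manganese the mutation medians were 0.71 before G, 0.76 before U, 0.78 before C and 0.16 before A, and the stop medians 0.70, 2.09, -0.26 and 2.60 points. With magnesium U before G had the highest stop median, 5.33 points, against 4.57 before C, 3.99 before U and 3.60 before A, and the mutation medians were 0.11, 0.19, 0.21 and 0.06 points in that order of bases. The ranges within each group overlapped in all 3 conditions, so these medians are a description of small groups.

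Stops also rose at positions that are not U. HIV RT gave 8 such calls among 166 non-U positions (4.82%, against 4.55% of all tested non-U positions), manganese 7 (4.22%, against 4.8%) and magnesium 5 (3.01%, against 2.29%), shares near the background. A U lay directly 3′ of 8, 6 and 4 of these calls. Among the 165 non-U positions with a 3′ neighbour inside the stretch, 28 (17.0%) precede a U. C741, before a pair of U, had 23.5% with CMC against 4.66% with mock for HIV RT and 21.9% against 5.71% with manganese, both called, but 6.24% against 5.33% with magnesium. C711 was called with manganese alone, at 22.8% with CMC against 5.96% with mock, and had 3.03% against 0.960% with HIV RT and 6.82% against 3.05% with magnesium. C711 lies in the GC-rich first 70 nt and is the called non-U position with manganese that has no U on its 3′ side.

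Falls belonged mostly to HIV RT. G819 had the largest, with a stop share of 4.22% with CMC against 20.7% with mock, while manganese gave 2.03% against 1.50% and magnesium 1.98% against 1.96%. G873 fell to 1.35% with CMC, against 10.4% with mock, with the same enzyme. C835 held the highest mock stop share of any library in the stretch, 26.1% with HIV RT, against 17.4% with CMC. Of the 12 falls with HIV RT, 7 were at G, 3 at C and 2 at A, and none at U. With manganese G845 fell (1.89% with CMC, 7.10% with mock), and with magnesium A812 fell (4.46% against 11.4%). HIV RT also misread A less often in the CMC library: 32 of 36 A had a lower mutation share, with a median of 0.500% with CMC against 0.966% with mock, although none was called. The mutation share was lower with CMC at 52 of 65 C too, with a median of 0.448% against 0.606%, and at 27 of 65 G. Over the A of the rest of 18S and 28S the median change was -0.12 points, against -0.49 points in the stretch.

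Some mismatches were present without CMC. At C824 manganese gave 5.95% with CMC and 5.71% with mock, and A made up 95% and 98.6% of these mismatches. HIV RT gave 0.297% and 0.235% there, and magnesium 0.600% and 0.815%. A847 had 1.44% with CMC against 4.87% with mock for manganese and 0.491% against 2.06% for magnesium, and 0.486% against 0.728% for HIV RT. At G807 the base read was mainly A in all 6 libraries (76.9% to 98.7% of mismatches), with a mutation share of 2.91% with CMC against 1.83% with mock for HIV RT, 3.64% against 3.43% with manganese and 1.52% against 1.15% with magnesium. None of these 3 positions was called for mutation. Human 18S genes exist in many near-identical copies whose reads are not separated here, and whether copies differ at these positions was not tested.

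Read coverage dropped across the cluster of pseudouridines in CMC libraries. With manganese 189907 reads crossed C824 in the CMC library against 195184 in the mock library, but 16415 crossed Ψ801 with CMC against 116219 with mock. With magnesium the counts were 168662 against 124961 at C824 and 17155 against 70503 at Ψ801. With HIV RT they were 110963 against 160388 at C824 and 20983 against 119026 at Ψ801. The product of the passing shares from 801 to 822 gives the part of cDNAs that would cross all 22 positions if stops were independent, and it was 8.46% with CMC against 33.8% with mock for HIV RT, 3.40% against 34.4% with manganese and 3.48% against 33.9% with magnesium. For the 4 positions from 863 to 866 it was 50.3% against 90.2%, 84.3% against 92.1% and 78.1% against 90.7%. The deepest position had 8.88, 14.0 and 13.2 times the reads of the shallowest with CMC, against 4.93, 4.76 and 3.17 times with mock. Fewer reads therefore lie behind the mutation shares at Ψ801 to Ψ815 than behind those at Ψ822.

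**Figure D5:**
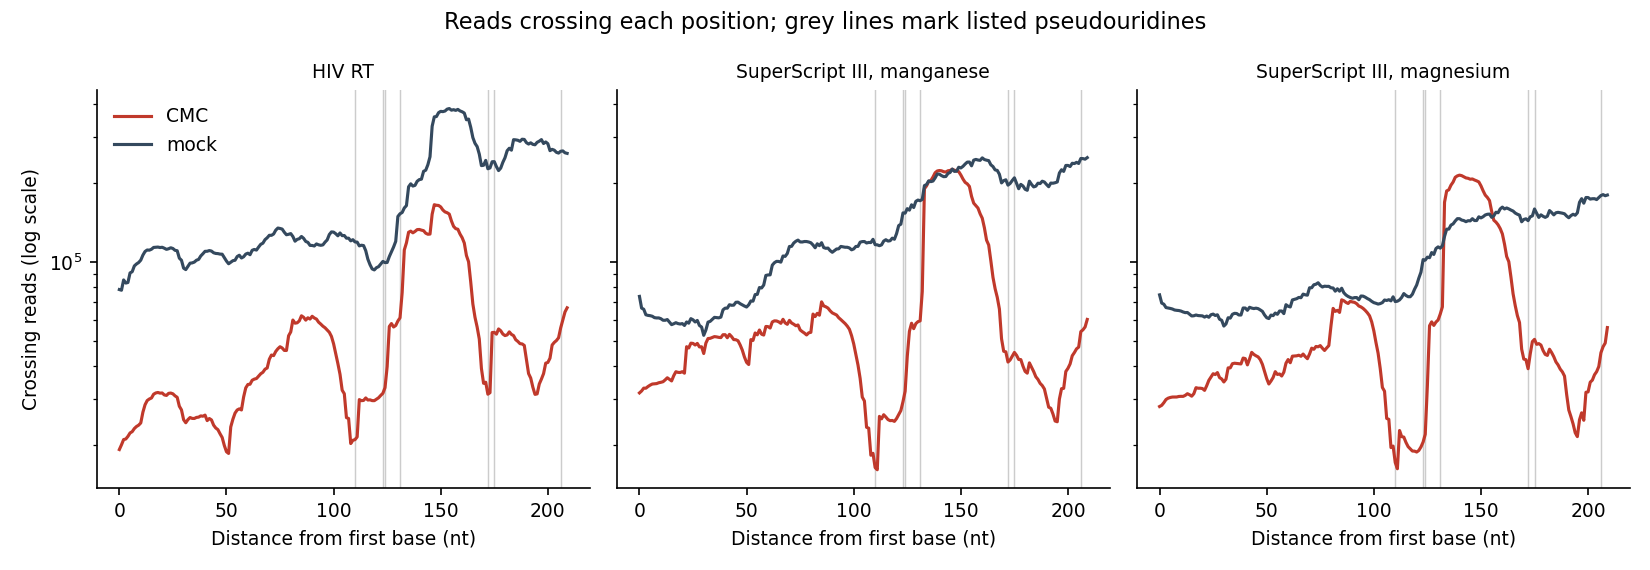
Reads crossing each position on a log scale, by distance from the first base, with CMC in red, mock in dark blue and grey lines at the 7 listed pseudouridines. The CMC lines step down across the Ψ822 and Ψ814 to Ψ815 lines toward the 5′ end and reach their lowest counts for SuperScript III beside Ψ801 (16105 with manganese and 16250 with magnesium).

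The 3 conditions shared part of their stop calls. HIV RT and manganese shared 13 positions (46.4% of the HIV RT calls and 81.3% of the manganese calls), HIV RT and magnesium 16 (57.1% and 59.3%), and manganese and magnesium 11 (68.8% and 40.7%). Across conditions 40 positions rose in at least 1 and 9 in all 3. The same overlaps over all tested positions are not given here, so this sharing cannot be called particular to the stretch. HIV RT and manganese shared 2 mutation calls, Ψ814 and Ψ866. Compared with magnesium, manganese gave a larger mutation change at each of the 7 listed sites, by 0.35 points (0.12 to 0.58) at Ψ801 at the least and by 9.09 points (8.73 to 9.45) at Ψ814 at the most. Its stop change was smaller than that with magnesium at Ψ814, Ψ815, Ψ863, Ψ866 and Ψ897, by 25.9 points (25.3 to 26.5) at Ψ815, and larger at Ψ801, by 8.65 points (7.81 to 9.48), and at Ψ822. HIV RT gave a larger mutation change than manganese at Ψ801, Ψ822 and Ψ897 and a smaller one at Ψ814, Ψ815, Ψ863 and Ψ866. The site with the largest stop change was Ψ863 with HIV RT and Ψ822 with both SuperScript III conditions.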

How the data were processed

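Positions, sites and lists were chosen with earlier results of these data known. For each of 6 libraries the authors deposited 1 table for 18S and 1 for 28S. Per the file headers these hold whole-number counts of crossing reads in all and by base, a stop column (a signal of stops booked to the position), and a mismatch rate and stop frequency, each a fraction. Both fractions in the deposited tables were recomputed from the counts and matched within 1e-09. No other normalization applies. The submitters' processing notes name Trimmomatic 0.32 and Bowtie 1.0. Their settings, the allowed mismatches and the reference's origin remain not given in the sources used here. The HIV RT tables carry a different name ending from the SuperScript III tables, so a difference in processing and one in enzyme cannot be told apart. Positions count from 1 in the deposited rRNA sequence, and no genome build applies. Site positions and guides come from general knowledge of human rRNA.

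Shares were compared per position, CMC against mock, at 100 or more crossing reads in both libraries, with Fisher's exact test, Benjamini-Hochberg adjustment over all tested positions and a bar of 5 points. Wilson and Newcombe 95% intervals cover counting error only. Differences between conditions combine Newcombe bounds and have no test. For HIV RT mutation and magnesium stop, counts were also simulated with counting error only. Nearly all positions raised by 10 points or more were called, and hardly any unraised ones were. The simulation checks the calling rule and holds no variation between libraries. Besides the 10 listed sites, the text names for each condition and measure up to 3 called unlisted positions with the largest rise and up to 2 with the largest fall, the unlisted positions called in every condition, the 3 highest mock positions, neighbours of listed sites and runs of 3 or more U. Some positions with the highest mock share are left unnamed. Alternatives were other bars, a depth minimum of 1000, adjustment over 18S alone, a 2-fold minimum, and 2 other ways to book stops. Python 3.11.15, SciPy 1.17.1 and pandas 2.3.3 were used.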

Additional observations from a re-analysis of the deposited data

How the results depend on the processing

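The size bar set the counts of rises. With a bar of 2 points, stop rises numbered 55 (HIV RT), 37 (manganese) and 52 (magnesium) and mutation rises 9, 20 and 2. With 10 points, stop rises numbered 12, 10 and 11, and mutation rises 0 with HIV RT and 0 with manganese. Adjustment over 18S alone, 1000 crossing reads, a CMC share at least 2 times the mock share and either other booking of stops kept each count of rises within 1.5 times. Several of these settings could hardly change a count. No position of the stretch had fewer than 16105 crossing reads in any library, and called positions had adjusted p far below the threshold. Booking stops 1 nt further 3′ moves each stop share to the next position, so a count can change only at the ends of the stretch. The median change over U lay below the unweighted mean. For mutation the mean was 1.38, 2.04 and 0.33 points and the pooled value 1.41, 1.76 and 0.29 points. For stop the mean was 7.14, 5.42 and 8.48 points and the pooled value 7.10, 7.16 and 10.4 points. Dividing stops by the crossing reads of the next 3′ position gave stop medians of 4.15 points with HIV RT and 4.64 with magnesium, and booking stops 1 nt further 3′ gave 3.30 and 1.40. The next-position share could not be had at Ψ822 with manganese and magnesium, where stops outnumber those crossing reads, so its counts and medians leave that site out in those conditions. The stop change at U820 with HIV RT was 0.00819 points with the next-position share, against -0.77 points as reported. No direction turned at any other named position in the settings run, which for single positions leave out the 3′ booking. Only the next-position share recomputes the change, so the other settings could not turn a direction. Each group has 1 library, so none can be left out within a condition, and a fit over the 3 CMC and mock pairs with condition as a block was not run. In CMC libraries the fewest reads lay at 802 with SuperScript III and at 742 with HIV RT.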
